A study of Mus musculus with 4 samples.

Results

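MHC class I molecules were described here through 8 genes of mouse pancreatic islets, chosen by name from the 52636 genes of the count table: the classical heavy chains H2-K1 and H2-D1, the non-classical heavy chains H2-Q4, H2-Q6, H2-Q7, H2-T22 and H2-T23, and B2m, the light chain. The choice was made with earlier results of the knockout against control comparison known, so the differences between genotypes given for these 8 genes are a description and not a test. Islets came from wild-type control mice and from knockout mice of genotype Tspan7y/-, in which the only X-linked copy of Tspan7, encoding a tetraspanin of the plasma membrane, is not functional, with 2 libraries in each group. The series' design text writes KD where the sample labels write knockout. The labels give no age or strain and do not say whether the libraries of a group came from separate animals, so the errors measure the spread between these libraries, which may be technical.

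A class I molecule is a heavy chain held together with beta-2 microglobulin, the B2m product, and a short peptide in its groove. Classical chains are carried by nearly every nucleated cell and show peptides from inside the cell to CD8 T cells. Non-classical chains are less variable and have narrower roles: the H2-T23 product, Qa-1, is read by NK cell receptors, H2-T22 binds a subset of gamma-delta T cell receptors, and H2-Q6 and H2-Q7 belong to the Qa-2 group. Interferons raise class I transcription, and in autoimmune diabetes islet cells carry more class I on their surface. The comparison belongs to a study of how Tspan7 loss affects exocytosis in beta cells.

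The 7 heavy-chain genes lie on chromosome 17 in the order H2-K1, H2-D1, H2-Q4, H2-Q6, H2-Q7, H2-T23, H2-T22, while B2m lies on chromosome 2. Class I promoters are known for a compact module, with an enhancer A site bound by NF-kappaB, an interferon-stimulated response element, and a downstream group of boxes that includes a cyclic AMP response element and a CCAAT box. The 250 bases before the transcription start of each gene were taken from RefSeq on GRCm38.p6, which matched 8 of 8 names. H2-K1 had 2 windows, and the one whose start lies further into the gene was used. The motif matches, positions and identities given for H2-K1 rest on that window. The counts were made on GRCm39, so these positions were used for the sequences alone. The sequences below are shown because they carry the module in different forms: B2m and H2-K1 as the abundant light and heavy chain, H2-Q6 and H2-Q7 as near copies, and H2-T23 as the chain whose window matched the fewest of these motifs. Each reads 5′ to 3′ on the gene's strand, and capitals mark matches on either strand to the cores AANNGAAA (interferon response), GG with 4 free bases and TCCC (kappaB), TGACG (cyclic AMP response) and CCAAT.
B2m, chr2:122147437-122147686, plus strand: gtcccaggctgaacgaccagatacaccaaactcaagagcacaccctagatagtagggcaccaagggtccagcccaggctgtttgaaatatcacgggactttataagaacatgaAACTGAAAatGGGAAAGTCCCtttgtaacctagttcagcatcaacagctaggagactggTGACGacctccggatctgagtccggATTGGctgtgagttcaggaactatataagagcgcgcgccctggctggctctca
H2-K1, chr17:34000334-34000583, minus strand: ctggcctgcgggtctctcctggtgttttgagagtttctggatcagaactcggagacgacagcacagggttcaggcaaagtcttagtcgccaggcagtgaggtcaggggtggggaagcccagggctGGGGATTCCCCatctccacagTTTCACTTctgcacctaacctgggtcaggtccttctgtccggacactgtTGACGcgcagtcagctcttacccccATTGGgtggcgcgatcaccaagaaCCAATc
H2-Q6, chr17:35424600-35424849, plus strand: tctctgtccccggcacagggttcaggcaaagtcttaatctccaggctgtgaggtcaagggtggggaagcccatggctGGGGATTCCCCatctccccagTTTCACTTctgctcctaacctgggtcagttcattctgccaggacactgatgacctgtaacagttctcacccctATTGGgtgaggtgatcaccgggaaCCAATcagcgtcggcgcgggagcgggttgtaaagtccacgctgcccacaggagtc
H2-Q7, chr17:35438905-35439154, plus strand: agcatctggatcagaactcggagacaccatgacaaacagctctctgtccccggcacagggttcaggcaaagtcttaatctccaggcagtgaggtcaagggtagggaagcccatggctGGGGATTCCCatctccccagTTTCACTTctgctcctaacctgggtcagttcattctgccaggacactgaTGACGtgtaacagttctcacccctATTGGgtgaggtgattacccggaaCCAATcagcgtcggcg
H2-T23, chr17:36032702-36032951, minus strand: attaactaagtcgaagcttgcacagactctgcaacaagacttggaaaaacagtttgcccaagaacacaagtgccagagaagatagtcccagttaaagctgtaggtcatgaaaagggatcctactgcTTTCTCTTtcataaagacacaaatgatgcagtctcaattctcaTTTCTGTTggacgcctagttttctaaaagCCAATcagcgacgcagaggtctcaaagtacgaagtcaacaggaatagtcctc

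The interferon response core was present in 8 of the 8 windows, against 21.31% of the 32851 promoter windows of the same length in the table. The CCAAT box was also in 8 of 8, against 33.85%. The kappaB core was in 7, against 17.63%, and was not found in the window of H2-T23. Its strict form, the enhancer A sequence that H2-K1 carries from base -125 to base -116 before its start, overlaps the core and was in the windows of H2-K1, H2-D1, H2-Q6 and H2-Q7 and in 28 of all 32851 windows (0.0852%). TGACG was in 6, against 17.77%, and was not found for H2-Q6 or H2-T23. In H2-K1, H2-D1, H2-Q4, H2-Q6, H2-Q7 and H2-T22 the kappaB core lay upstream of the interferon response core, while in B2m it lay downstream of it. The aligned promoter bases of H2-Q6 and H2-Q7 were 97.6% identical over 210 bases, and those of H2-K1 and H2-D1 87.2% over 203. B2m against H2-K1 gave 48.9%. The motifs were chosen with the sequences in view, and a match does not show that a factor binds.

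**Figure D1:**
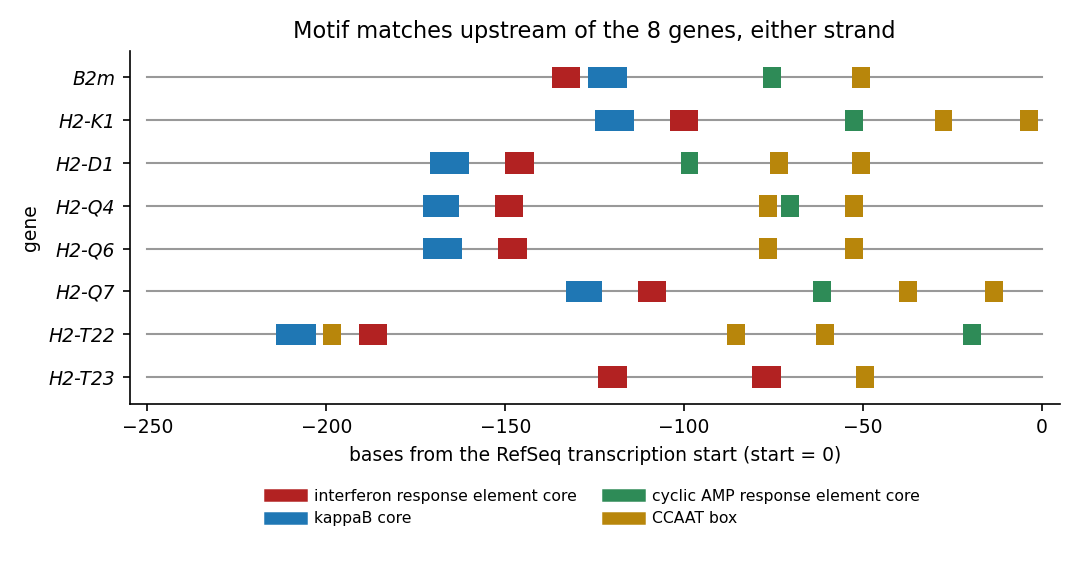
Position of motif matches in the 250 bases before the RefSeq start (x axis, bases, start at 0) of the 8 genes (rows), with 1 colour per motif and bars drawn to scale. The kappaB core (blue) precedes the interferon response core (red) in 6 heavy-chain genes and follows it in B2m, and H2-T23 has no kappaB match.

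The libraries held 7855665 to 9377220 counts, and the detection floor, set at 3 counts, equals 0.312 to 0.398 scaled CPM. Scaled CPM are a gene's counts divided by its library's total after trimmed-mean scaling, so that libraries of different depth can be compared. The targeted gene Tspan7 held 1924 and 1795 counts in control islets against 3 and 2 in knockout islets, matching the labels (log2 fold change -9.42 ± 0.25, edgeR adjusted p = 3.51e-06). Islet endocrine markers took 25942 to 31618 scaled CPM in each library, with 11 of 11 markers overlapping between the groups. Most genes overlap, since the knockout pair lay below the control pair in 15.0% of all genes tested and above in 15.3%. Acinar markers, from exocrine tissue, varied widely, at 2135 and 50.3 scaled CPM in control replicates 1 and 2 and 965 and 4399 in knockout replicates 1 and 2. Over all 16924 genes tested with edgeR, only Tspan7 passed an adjusted p of 0.05, with 1 gene lower and 0 higher, while 331 lower and 263 higher genes had an unadjusted p under 0.05.

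Per length of annotated exon, B2m was the most abundant of the 8 genes, at 221 and 199.8 scaled CPM per kilobase in the control libraries. H2-K1 followed at 83.9 and 74.5, and H2-D1 at 54.7 and 52.7. The non-classical chains lay well below the classical pair. H2-Q4 had 13.6 and 19.0 scaled CPM per kilobase, H2-T22 10.02 and 10.1, and H2-T23 7.86 and 6.92. H2-Q6 had 3.75 and 3.82 and H2-Q7 0.250 and 0.473. No neighbours in this order overlapped in either group. When the longest coding transcript replaced the union of exons as the length, B2m and H2-K1 overlapped in the knockout libraries (105.2 and 121.6 against 105.01 and 113.2 scaled CPM per kilobase), and so did H2-T22 and H2-Q4 (13.9 and 17.6 against 15.1 and 13.8).

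Together the 8 genes took 0.0659% of the counts in each control library and 0.0449% and 0.0444% in knockout replicates 1 and 2. In each of the 8 genes the higher knockout library was under the lower control library, which was so for 15.0% of all genes tested. H2-Q7 was too low to pass the filter, which left 7 of the 8 in the fit of all genes. Of these 7, edgeR called 0, beside 0.00591% of all genes called lower. At an unadjusted p under 0.05 there were 5 of the 7, beside 1.96%. DESeq2 called 1 of the 8, B2m, beside 0.0125%. Because the members were chosen on this contrast, nothing is read from these shares. The median log2 fold change of the 7 was -0.43, against 0.003 over all genes tested, of which 6.52% lay at or below that median. In bulk islets, fewer cells of a type and less RNA per cell cannot be told apart.

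**Figure D2:**
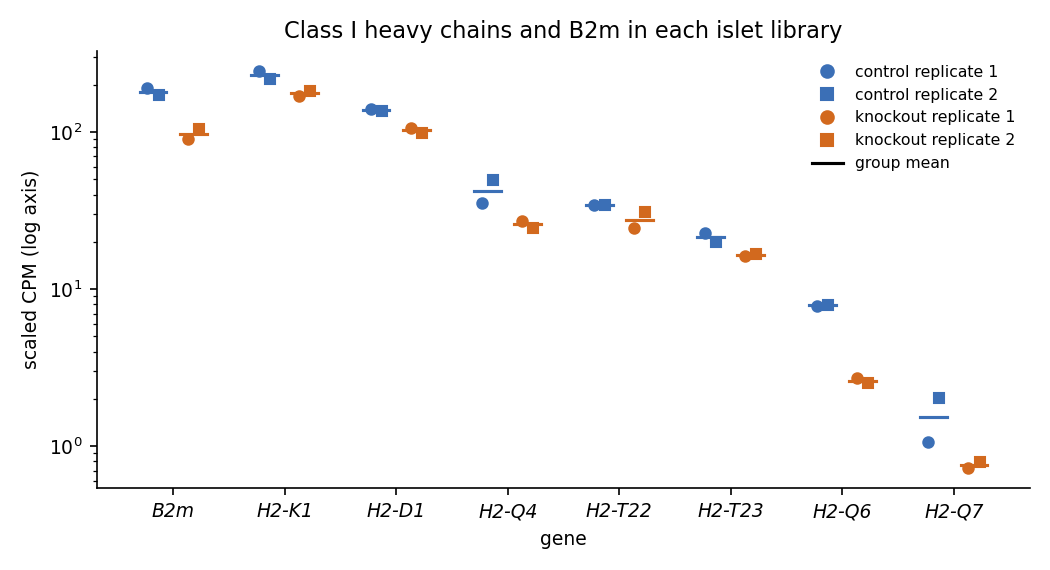
Scaled CPM (log axis) of the 8 genes (x axis) in each library, with control libraries in blue, knockout libraries in orange and a bar at the group mean. In all 8 genes both orange points lie below both blue points, with the widest gap in H2-Q6 (7.81 and 7.97 against 2.70 and 2.52 scaled CPM).

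B2m (ENSMUSG00000060802), without which heavy chains do not reach the cell surface in stable form, gave 1607 and 1617 counts in control replicates 1 and 2, against 871 and 789 in knockout replicates 1 and 2. On the scaled level these were 190.1 and 171.8 against 90.5 and 104.6 CPM, so the groups lay far apart. The knockout mean was 53.9% of the control mean (181 ± 12.9 against 97.5 ± 9.99 scaled CPM, SD, n = 2 each), and the log2 fold change was -0.89 ± 0.14 (SE; 95% confidence interval (CI) -1.22 to -0.56; edgeR adjusted p = 0.684). DESeq2 gave B2m a log2 fold change of -0.90 with an adjusted p of 0.0252. Over all 11 alternatives its adjusted p ran from 0.00026 in edgeR with no low-count filter to 0.9998 in limma-voom.

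The classical chains were lower by a smaller amount. H2-K1 (ENSMUSG00000061232) gave 2084 and 2060 counts in control against 1637 and 1382 in knockout islets. Its scaled levels of 246.6 and 218.9 against 170.02 and 183.2 CPM did not overlap, and the knockout mean was 75.9% of control, a log2 fold change of -0.40 ± 0.14 (95% CI -0.71 to -0.08; edgeR adjusted p = 0.9997). H2-D1 (ENSMUSG00000073411) gave 1192 and 1279 against 1021 and 747 counts. Its scaled levels were 141.04 and 135.9 against 106.04 and 99.02 CPM, the tightest pairs among the abundant chains, with a knockout mean at 74.04% of control and a log2 fold change of -0.43 ± 0.13 (95% CI -0.74 to -0.13; edgeR adjusted p = 0.9997). The ratio of H2-D1 to H2-K1 counts was 0.572 and 0.621 in control against 0.624 and 0.541 in knockout islets, so the balance of the classical pair overlapped between genotypes.

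Among the non-classical members the Q-region genes showed the larger differences with all 4 libraries. This holds for the members only, since H2-Q2, a Q-region gene outside them, stood at a log2 fold change of 0.06. H2-Q6 (ENSMUSG00000073409) gave 66 and 75 counts in control against 26 and 19 in knockout islets. The knockout libraries held 33.2% of the control level from summed counts, with 23.2% to 46.7% as the exact binomial interval, and the log2 fold change was -1.59 ± 0.28 (95% CI -2.22 to -0.95; edgeR adjusted p = 0.684). H2-Q7 (ENSMUSG00000060550), its near copy, gave 9 and 19 counts in control against 7 and 6 in knockout islets. At that depth the knockout level was 48.3% of control with an interval of 22.96% to 96.3%. It was not in the fit, and the log2 ratio of its mean scaled CPM was -1.02. Summing H2-Q6 and H2-Q7 counts gave a log2 fold change of -1.48.

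H2-Q4 (ENSMUSG00000035929) had 298 and 465 counts in control against 260 and 186 in knockout islets. Its control libraries were the most uneven of the tested members, at 35.3 and 49.4 scaled CPM against 27.00 and 24.7 in the knockout libraries. The log2 fold change of -0.71 ± 0.19 (95% CI -1.15 to -0.28; edgeR adjusted p = 0.9997) became -0.45 without control replicate 2 and -0.94 without control replicate 1. With no low-count filter, edgeR called H2-Q4, H2-Q6 and B2m lower, 3 of 8 members beside 0.147% of genes.

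The T-region members had the smallest differences of the members with all 4 libraries. H2-T22 (ENSMUSG00000056116) had 289 and 324 counts in control against 235 and 234 in knockout islets. Its scaled levels of 34.2 and 34.4 CPM in control came close to the upper knockout library (24.4 and 31.02), and the log2 fold change was -0.31 ± 0.17 (95% CI -0.70 to 0.07; edgeR adjusted p = 0.9997). It stood at -0.14 without knockout replicate 1 and at -0.49 without knockout replicate 2. H2-T23 (ENSMUSG00000067212) had 192 and 188 against 157 and 126 counts. Its scaled levels were 22.7 and 19.98 against 16.3 and 16.7 CPM, with both knockout libraries close together, and its log2 fold change was -0.37 ± 0.17 (95% CI -0.77 to 0.03; edgeR adjusted p = 0.9997). The ratio of H2-T23 to H2-T22 counts, 0.664 and 0.580 in control against 0.668 and 0.538 in knockout islets, overlapped between genotypes.

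Set side by side, the light chain showed the largest difference of the 3 classes. The classical sum measured 387.6 and 354.8 scaled CPM in control against 276.1 and 282.2 in knockout islets, or 75.2% of control. The non-classical sum of 5 chains measured 101.05 and 113.8 against 71.1 and 75.7, or 68.3%. B2m, as above, stood at 53.9%. On the log2 scale the ratios were -0.41, -0.55 and -0.89. Within a library the count of B2m per count of classical heavy chain was 0.491 and 0.484 in control against 0.328 and 0.371 in knockout islets, which do not overlap. This ratio does not depend on how libraries are scaled. The ratio of non-classical to classical counts was 0.261 and 0.321 in control against 0.258 and 0.268 in knockout islets, which overlap. With 2 libraries per group an exact test of these ratios could not reach a p of 0.05, and none was made.

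**Figure D3:**
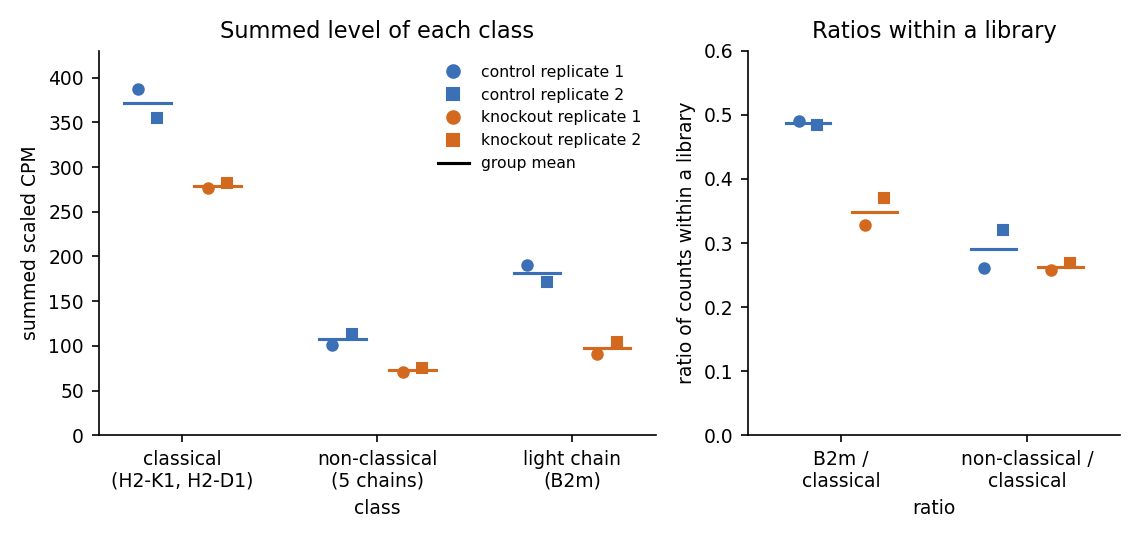
Left, summed scaled CPM of the classical chains, the 5 non-classical chains and B2m in each library; right, ratios of counts within a library; both y axes start at 0, points are libraries and bars are group means. B2m per classical count falls between 0.328 and 0.371 in the knockout libraries and at 0.484 and 0.491 in the control libraries, while the non-classical ratio overlaps.

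How well reads can be told apart differs among these genes, and the labels do not give the treatment of reads with several matches. In the GENCODE M21 transcripts, 100% of the 50-base stretches of B2m occurred in no other gene. For H2-K1 the share was 90.4%, for H2-D1 87.2% and for H2-T23 85.5%. It was lower for H2-Q7 (73.6%), H2-Q6 (65.03%), H2-Q4 (63.6%) and H2-T22 (46.5%). H2-T22 shared 31.3% of its stretches with H2-T10 and 26.55% with A930015D03Rik. H2-Q4 shared 15.3% with Gm11131, H2-Q7 14.03% with H2-Q10 and H2-Q6 13.9% with H2-Q7. With 100-base stretches the shares found in no other gene were 68.5% for H2-T22, 86.96% for H2-Q6 and 99.04% for H2-K1. At that length H2-T22 shared 24.01% with A930015D03Rik and 6.92% with H2-T10. Reads of the Q-region chains and of H2-T22 can thus be split among copies or other genes, which makes their counts uncertain.

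Other class I and class I-like chains did not all lie on the same side. Of 26 names listed, 22 were matched and 8 passed the filter, with 6 negative and 2 positive log2 fold changes, a median of -0.11 and 0 called by edgeR (2, both lower, at an unadjusted p under 0.05, beside 1.96% of all genes). H2-Q2, which neighbours H2-Q4, gave 629 and 689 counts in control against 612 and 683 in knockout islets, at a log2 fold change of 0.06 ± 0.18 (95% CI -0.36 to 0.48). The count of H2-Q2 per count of H2-Q4 was 2.11 and 1.48 in control against 2.35 and 3.67 in knockout islets, which do not overlap. The 250 bases before the H2-Q2 start hold the interferon response core and the CCAAT box but no match to either kappaB form or to TGACG. The window of H2-T23, whose log2 fold change was -0.37, lacks the same matches. H2-M3, which presents formylated bacterial peptides, gave 97 and 102 against 81 and 58 counts (log2 fold change -0.47 ± 0.22, 95% CI -0.96 to 0.03). Its window holds all 4 cores but not the strict kappaB form. A link between motif matches and these fold changes was not tested. Hfe, a regulator of iron uptake, stood at -0.10 ± 0.24. H2-Q1 gave 11 and 15 against 5 and 3 counts, and Procr, the endothelial protein C receptor, 16 and 30 against 9 and 8. Both passed the filter through their control libraries, so their log2 fold changes of -1.62 ± 0.55 and -1.35 ± 0.46 had to be negative. They are the 2 genes with an unadjusted edgeR p under 0.05 and are among the 6 negative ones. Nothing is read from those counts.

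The peptide loading list, which holds the genes that cut, carry and load the peptides, had 13 of 13 members tested and 0 called by edgeR in either direction. All 13 log2 fold changes were negative, beside 49.4% of all genes, running from -0.64 to -0.04 around a median of -0.28. An unadjusted edgeR p under 0.05 was found for 3, beside 1.96% of all genes lower at that level. Like the other gene lists, this list was chosen with earlier results of these data known. Nothing is read from such shares. Tap1 and Tap2, which form the peptide transporter of the endoplasmic reticulum, stood at -0.62 ± 0.24 and -0.54 ± 0.21. Tap1 gave 118 and 135 counts in control against 106 and 55 in knockout islets. Tapbpl, a peptide editor, stood at -0.45 ± 0.15 and the trimming peptidase gene Erap1 at -0.28 ± 0.14. These 4 had an edgeR adjusted p of 0.9997.

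Transcription regulators of class I were mixed. Of 15 tested, 10 had a negative log2 fold change and 5 a positive one, 0 were called by edgeR and 2, both lower, reached an unadjusted p under 0.05 (1.96% of all genes did so in that direction). Their median was -0.07. Nlrc5, the class I transactivator, gave 36 and 84 counts in control against 36 and 13 in knockout islets, with a log2 fold change of -1.24 ± 0.47. In scaled CPM its knockout libraries lay below its control libraries, with replicates of each group far apart. Stat2, which carries the interferon signal to the nucleus, stood at -0.48 ± 0.16, and its partner Irf9 at -0.31 ± 0.16. Nfyc, a subunit of the factor that binds CCAAT boxes, stood at 0.17 ± 0.15. Each of these 4 had an edgeR adjusted p of 0.9997. The 4 interferon receptor genes ranged from -0.35 for Ifnar2 to 0.12 for Ifngr2, with Ifngr1 at -0.09 and Ifnar1 at 0.00, and 0 of 4 were called or had an unadjusted p under 0.05.

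**Figure D4:**
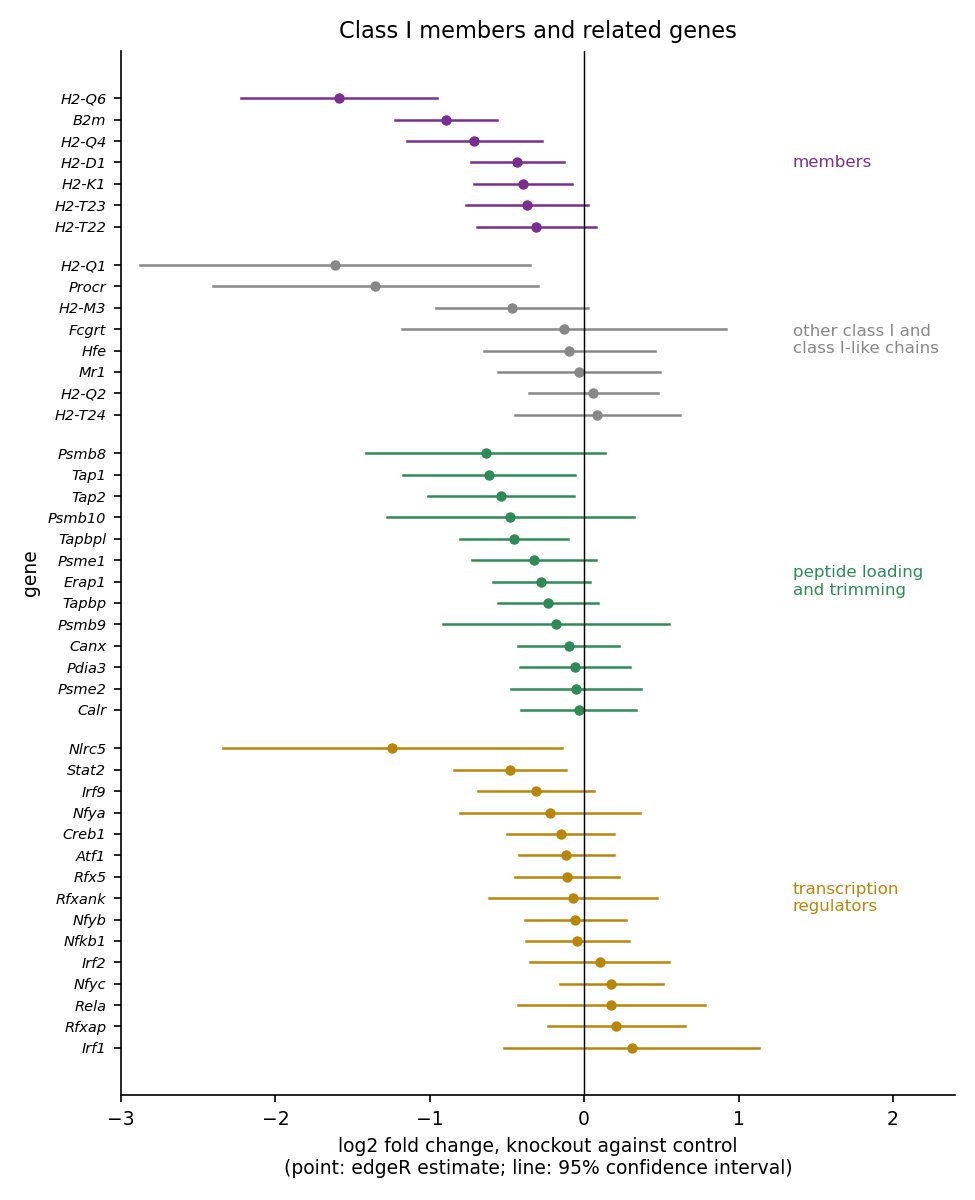
Log2 fold change of knockout against control (x axis; point, edgeR estimate; line, 95% CI) for the 7 members tested and 3 lists of related genes (rows). The members run from -1.59 for H2-Q6 to -0.31 for H2-T22, while H2-Q2 and H2-T24 lie just above 0.

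Of the markers of other cell types, edgeR called 0. The summed macrophage markers measured 129.6 and 106.7 scaled CPM in control against 91.5 and 79.7 in knockout islets, and 14 of 14 tested markers had a negative log2 fold change (median -0.43, range -0.94 to -0.04), beside 49.4% of all genes. In 8 of them the groups did not overlap, beside 15.0% of all genes in that direction. At an unadjusted edgeR p under 0.05 there were 5, beside 1.96% of all genes lower at that level. The leukocyte gene Ptprc, the first of these, gave 95 and 89 against 55 and 38 counts (log2 fold change -0.94). In the other 6 tested macrophage markers the groups overlapped. These include Csf1r (log2 fold change -0.10), C1qa (-0.14), C1qb (-0.06) and Cx3cr1 (-0.04). Endothelial markers summed to 524.8 and 542.2 against 450.2 and 519.2 scaled CPM (8 of 10 negative, median -0.26), and stellate and fibroblast markers to 203.4 and 237.7 against 154.1 and 198.97 (5 of 6 negative, median -0.57). Both knockout libraries also lay below both control libraries in 7 of 10 endothelial and 4 of 6 stellate and fibroblast markers. Ductal markers summed to 49.3 and 177.1 against 24.5 and 54.5 scaled CPM, which overlap, with 3 of 4 tested markers positive. Most of each sum was Spp1, at 44.7 and 171.5 in control against 19.1 and 48.1 in knockout islets. Spp1 was the 1 tested ductal marker with a negative log2 fold change (-1.70). The 12 lymphocyte and NK markers gave 26 and 29 counts in all in control against 22 and 17 in knockout islets, with Ms4a1 and Ncr1 at 0 in every library. The only one tested, the B cell gene Cd79a, gave 14 and 12 against 15 and 13 counts (log2 fold change 0.16). The marker lists were also chosen with earlier results of these data known, so nothing is read from their shares. The part of these cells in the class I values was not tested.

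The genes whose profile over the 4 libraries was nearest to B2m, among 15011 compared, were Gm47287, Gm47305, the interferon-inducible Trim30a, the lipid droplet gene Hilpda and the potassium channel gene Kcnj2. The root mean square difference of their centred log2 CPM from that of B2m was 0.0521 to 0.0768. Nearest to H2-K1 were Osgin1, E330011M16Rik, Rita1, the complement gene C1qc and Gm17108, at 0.0042 to 0.0362. With 4 libraries such likeness is a description only.

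Genes that lie between H2-K1 and H2-T22 on chromosome 17 but are not H2 genes gave a local reference. Only names starting with H2 were left out, so peptide loading genes or class I relatives under other names in this stretch were kept. Of 85 tested, 43 had a negative log2 fold change, the median was -0.006 and 0 were called by edgeR. The knockout pair was under the control pair in 19 of them (22.4%), beside 15.0% of all genes tested, and above in 18, beside 15.3%.

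**Figure D5:**
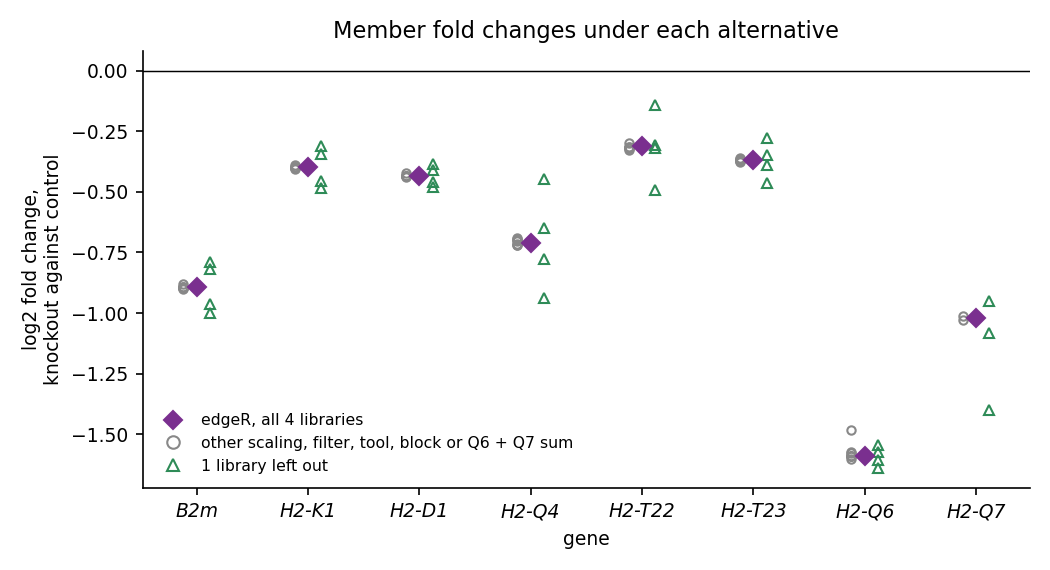
Log2 fold change of each member (x axis) in edgeR with all 4 libraries (diamonds; for H2-Q7, which was not in that fit, the log2 ratio of mean scaled CPM), under other scalings, filters, tools, blocks or the H2-Q6 and H2-Q7 sum (circles), and with 1 library left out (triangles). All values lie below 0, with the widest spread over left-out libraries in H2-Q4 (-0.94 to -0.45), H2-Q7 (-1.40 to -0.95) and H2-T22 (-0.49 to -0.14). The triangles of H2-Q7 come from fits where it passed the filter only through control replicate 2.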

How the data were processed

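RNA of whole islets was sequenced in 2 control and 2 Tspan7 knockout libraries, grouped by the sample labels. Raw counts for each Ensembl gene were deposited by the authors. HISAT2, featureCounts and GRCm39 appear in the submitters' processing notes. The sources used here do not give versions, annotation release, strand use or the treatment of reads with several matches. Symbols came from GENCODE M21 (52403 of 52636 identifiers matched). The members, gene lists and motifs were chosen with earlier results of these data known. Named genes were the members, the 4 smallest p-values of each list of related genes (Tap1, Nlrc5 and Ptprc always) and the 5 nearest profiles to B2m and H2-K1. H2-Q2, H2-T24, H2-K2, Cd1d1, Fcgrt, Cd79a, Spp1, Csf1r, C1qa, C1qb, Cx3cr1 and the listed genes or markers at 0 were named after their values were seen. Of the regulators listed for the design, 1 gene is not reported here.

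Counts were fitted in edgeR 4.0.16 (R 4.3.3; robust quasi-likelihood F test, two-sided, filterByExpr minimum count 10, trimmed-mean scaling, 16924 genes, Benjamini-Hochberg over all of them), with DESeq2 1.42.0 and limma 3.58.1 as alternatives, and the pipeline was tested on simulated data. SE and CI come from that fit. Promoters were aligned with Biopython 1.88. Over all pairs of libraries, within and between groups, differences exceeded counting noise (chi-square over its degrees of freedom 7.08 to 19.97). The exact binomial intervals of H2-Q6 and H2-Q7 cover counting error only and leave out the spread between libraries. Reads carried no molecular identifiers.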

Additional observations from a re-analysis of the deposited data

How the results depend on the processing

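Every member had a negative log2 fold change in each alternative that gave it a value (12 for H2-Q6, 5 for H2-Q7, 11 for the others). With 1 library left out, H2-Q7 passed the filter only through control replicate 2 (19 counts). Nothing is read from its sign in those fits. The count of all genes called moved most. With no low-count filter edgeR called 47 lower and 15 higher, DESeq2 4 lower, and with 1 library left out the counts ran from 1 to 15 lower and from 0 to 33 higher, both highest without control replicate 1. The cause was not tested.

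The replicate block, which pairs libraries by their number, gave 5 lower and 1 higher and called 0 members (lowest adjusted p 0.0809, edgeR). Deviations of same-numbered libraries correlated at -0.30 over genes, so the crossed pairing was added after seeing the data; it gave 1 lower and 1 higher. Since 2 pairs cannot show a pairing, the block stands as an alternative only.

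The median of the 7 members was -0.49 without knockout replicate 2, -0.48 without knockout replicate 1 and -0.41 without control replicate 1. The log2 ratios of summed counts ran, with 1 library left out, from -0.47 to -0.35 for the classical, -0.63 to -0.46 for the non-classical chains and -1.001 to -0.79 for B2m. The median log2 fold change of all genes was 0.00037 with DESeq2 size factors and 0.00084 with upper-quartile scaling, against 0.003. Depth limits H2-Q7 most, with 41 counts over 4 libraries.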

Other observations

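H2-K2, a pseudogene of the H2-K region, lay on the other side from its neighbour H2-K1. It gave 26 and 21 counts in control replicates 1 and 2, against 45 and 40 in knockout replicates 1 and 2, or 2.65 ± 0.597 against 4.99 ± 0.444 scaled CPM (SD, n = 2 each), with a log2 fold change of 0.91 ± 0.32 that did not pass (edgeR adjusted p = 0.9997). Both knockout libraries lay above both control libraries, as in 15.3% of all genes tested. H2-T24 overlapped between the groups, with 94 and 121 counts in control against 143 and 79 in knockout islets (log2 fold change 0.08 ± 0.23). 

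Of the 22 other class I and class I-like genes matched, 6 had no count in any library: H2-M1, H2-M5, H2-M9, H2-M10.1, H2-M11 and Azgp1. Cd1d1, which presents lipids, gave 2 and 0 counts in control against 2 and 2 in knockout islets, and Fcgrt, the neonatal Fc receptor chain that pairs with B2m, 14 and 11 against 12 and 10. The names H2-Q8, H2-Q9, H2-T9 and H2-T26 matched no identifier and were not analysed here.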
